A study of Arabidopsis thaliana with 6 samples.

Results

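The genes described here encode the nuclear-encoded proteins of the 2 photosystems and of their light-harvesting antenna in *Arabidopsis thaliana*. They were chosen by locus and not by a cut on measured values, although earlier results of these data were known. They comprise 43 of the 27827 probe sets on the array. Of these, 20 encode light-harvesting chlorophyll-binding proteins (6 *LHCA* and 14 *LHCB* genes), 12 encode subunits of photosystem I (*PSA* genes) and 11 encode subunits of photosystem II (*PSB* genes). Each gene had 1 probe set, all 43 were measured, and none was removed by a filter.

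The genotypes compared were wildtype Col-0 and the mutant *naa20-1*, a T-DNA insertion line in the gene for the catalytic subunit of the N-terminal acetyltransferase NatB. By the sample labels, both had been moved 2 days into growth to 1×MS medium with 2 mM of the reductant dithiothreitol (DTT). Both were kept there under short days for 15 days and were harvested whole at 17 days. Each pool held at least 10 seedlings, with 3 arrays per genotype. All 6 arrays therefore carry the DTT treatment. Arrays of seedlings without DTT were not analysed here, so the values compare genotypes on DTT and are no response to DTT. The paper gives other start times for its long DTT treatments and describes delayed germination of *naa20* seeds. Whether the genotypes were at the same stage at harvest was not tested. The mutant is represented by 1 allele, and nothing in the labels says whether the 3 pools of a genotype were grown apart. The paper's supplement describes RNA of individual plants instead, with 3 samples per condition kept by mRNA integrity and purity. The p-values therefore measure the spread between these samples. The signal of *NAA20* (AT1G03150) was 7.44, 6.98 and 7.54 in *naa20* against 8.69, 8.56 and 8.83 in wildtype on the log2 scale, a difference of -1.38 ± 0.16 (SE, n = 3 per genotype; limma, adjusted p = 0.000689), which leaves 38.5% of the wildtype signal.

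Light-harvesting proteins hold most of the chlorophyll of a leaf and pass the absorbed energy to the reaction centres. The LHCB proteins serve mainly photosystem II, where LHCB1, LHCB2 and LHCB3 form the major trimeric antenna and LHCB4, LHCB5 and LHCB6 are single linker proteins, while the LHCA proteins form a belt around photosystem I. Photosystem II oxidises water at a cluster shielded by the PSBO, PSBP and PSBQ proteins, and photosystem I takes electrons from plastocyanin and hands them to ferredoxin. The reaction centre cores are encoded in the plastid and the proteins considered here in the nucleus, many of them by small families of near-identical copies.

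The signal of 42 of the 43 genes was below wildtype in *naa20*. The median difference of the 43 on the log2 scale was -0.86, against 0.00 over all probe sets, of which 50.4% were lower. A gene passed the threshold at a Benjamini-Hochberg adjusted p under 0.05 over all probe sets (limma) and at least a 2-fold difference. By this measure 13 of the 43 fell and none rose, while 4.97% of all probe sets fell and 4.95% rose. Without the 2-fold limit 40 of the 43 were lower, against 17.4% of all probe sets. All 3 *naa20* arrays lay below all 3 wildtype arrays for 40 genes, against 24.1% of all probe sets, and above them for 1 gene, against 23.4%. Either separation is seen in 47.5% of all probe sets. Among the 1748 other probe sets with a mean signal of 9.98 or more, the range that holds most of the photosystem genes, the shares were 3.26%, 24.7% and 34.2%. The genes were picked with earlier results of these data known, and the counts are descriptions beside the background. Whole seedlings were measured, so that fewer cells of a type and less RNA per cell cannot be told apart.

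**Figure D1:**
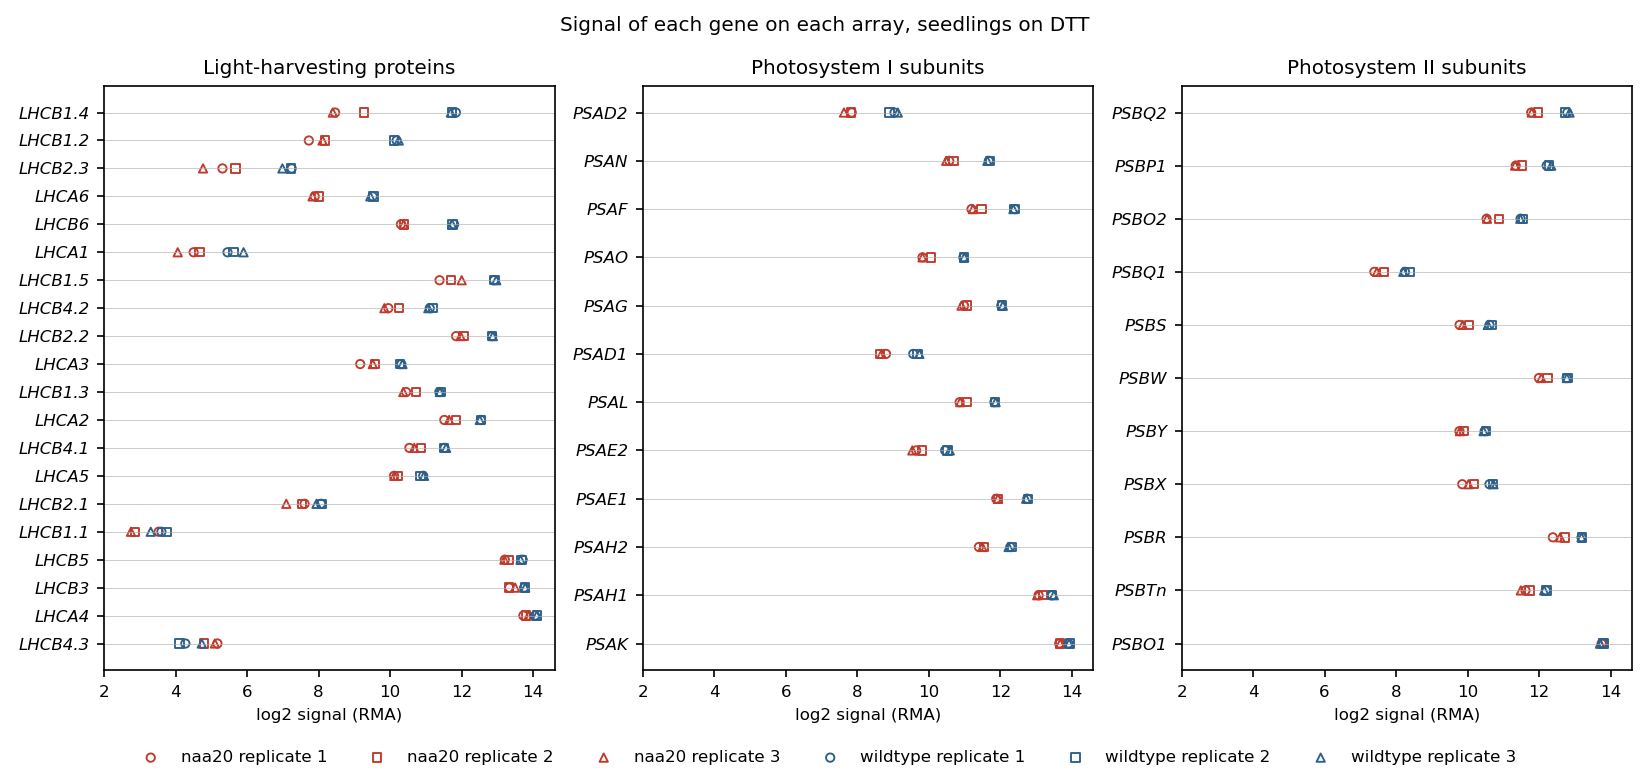
Log2 signal (x axis) of each of the 43 genes (y axis) on each of the 6 arrays, with *naa20* in red and wildtype in blue and 1 symbol shape per replicate number. The wildtype points of most genes almost coincide, and for 40 genes all red points lie to their left, while those of *LHCB4.3* lie to their right and those of *LHCB1.1* and *PSBO1* overlap the blue ones.

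The antenna genes showed the widest range of differences. Of the 20 genes, 8 fell past the 2-fold limit, 10 more were lower at an adjusted p under 0.05, *LHCB4.3* (AT2G40100) was higher and *LHCB1.1* (AT1G29920) did not pass the test. The median difference was -0.89, and it was close for *LHCA* (-0.88, 6 genes, 2 past the threshold) and *LHCB* (-0.89, 14 genes, 6 past the threshold).

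*LHCB1.4* (AT2G34430), 1 of 5 measured copies for the main protein of the trimeric antenna, had the lowest difference of all 43 genes. Its signal was 8.46, 9.27 and 8.40 in *naa20* and 11.84, 11.74 and 11.70 in wildtype. The difference was -3.05 ± 0.23 (SE; adjusted p = 0.000114), an 8.29-fold lower signal, and the highest *naa20* array stayed 2.43 below the lowest wildtype array. *LHCB1.2* (AT1G29910), another copy, was at 7.73, 8.18 and 8.11 in *naa20* and at 10.18, 10.12 and 10.24 in wildtype, a 4.51-fold lower signal (-2.17 ± 0.13, adjusted p = 5.83e-05). Both genes were thus far below wildtype on every *naa20* array. The other copies differed less. *LHCB1.5* (AT2G34420) was at 11.38, 11.71 and 12.00 against 12.91, 12.92 and 12.97 (-1.23 ± 0.16), so that the *naa20* arrays were spread over a wider range than the wildtype arrays. *LHCB1.3* (AT1G29930) was at 10.45, 10.72 and 10.37 against 11.38, 11.42 and 11.39 (-0.88 ± 0.11, adjusted p = 0.000927), which is lower on every array but short of 2-fold. *LHCB1.1* had the lowest signal of the antenna genes, 3.52, 2.87 and 2.75 in *naa20* and 3.60, 3.75 and 3.30 in wildtype. Its genotypes overlapped (-0.50 ± 0.22, adjusted p = 0.124), and without *naa20* replicate 1 the difference was -0.74 with an adjusted p of 0.0171. Its mean signal was at the 18.9th percentile of all probe sets.

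Of the 3 genes for LHCB2, the other abundant protein of the trimers, *LHCB2.3* (AT3G27690) had the lowest difference. It was at 5.31, 5.67 and 4.77 in *naa20* and at 7.25, 7.23 and 6.99 in wildtype, a 3.74-fold lower signal (-1.90 ± 0.22, adjusted p = 0.000671). *LHCB2.2* (AT2G05070) was at 11.85, 12.05 and 11.97 against 12.86, 12.86 and 12.88 (-0.91 ± 0.09), and *LHCB2.1* (AT2G05100) at 7.61, 7.54 and 7.09 against 8.07, 8.09 and 7.94 (-0.62 ± 0.15, adjusted p = 0.0151). All 3 genes were lower without overlap, *LHCB2.1* by the smallest margin, a gap of 0.33 between the closest arrays. Its adjusted p was 0.052 without wildtype replicate 1 and 0.0537 without wildtype replicate 2. *LHCB3* (AT5G54270), the third trimer protein, is encoded by 1 gene and was at 13.33, 13.33 and 13.50 against 13.75, 13.78 and 13.78. This 1.3-fold difference (-0.38 ± 0.09, adjusted p = 0.0135) was the smallest of the trimer genes that passed the test, and its adjusted p was 0.0516 without *naa20* replicate 1.

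Among the linker proteins between trimers and photosystem II core, *LHCB6* (AT1G15820) differed most. Its signal was 10.30, 10.39 and 10.38 in *naa20* and 11.79, 11.75 and 11.73 in wildtype, and the 2.64-fold difference (-1.40 ± 0.08, adjusted p = 4.76e-05) had a small spread in both genotypes. *LHCB4.2* (AT3G08940) was at 9.95, 10.25 and 9.84 against 11.11, 11.19 and 11.07 (-1.11 ± 0.12). *LHCB4.1* (AT5G01530), another gene of the LHCB4 family, was at 10.54, 10.86 and 10.68 against 11.52, 11.51 and 11.57 (-0.84 ± 0.10). Of these genes only *LHCB4.2* passed the 2-fold limit. *LHCB5* (AT4G10340) was 1.35-fold lower (-0.44 ± 0.08, adjusted p = 0.00584). *LHCB4.3*, the third gene of the LHCB4 family, went the other way. It was at 5.17, 4.79 and 5.10 in *naa20* and at 4.27, 4.11 and 4.73 in wildtype, and so was higher on each *naa20* array than on any wildtype array (0.65 ± 0.18, 1.57-fold, adjusted p = 0.0301). Across all probe sets 16.6% were higher at an adjusted p under 0.05. The result for *LHCB4.3* is a narrow one, since the adjusted p was 0.101 without *naa20* replicate 1, 0.0806 without *naa20* replicate 3, 0.0942 without wildtype replicate 1 and 0.0935 without wildtype replicate 2.

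All 6 genes for the photosystem I antenna were lower. *LHCA6* (AT1G19150), whose protein joins photosystem I to the NDH complex of cyclic electron flow together with LHCA5, differed most, with 7.89, 8.01 and 7.83 in *naa20* and 9.51, 9.54 and 9.45 in wildtype (3.01-fold, -1.59 ± 0.09, adjusted p = 4.3e-05). *LHCA1* (AT3G54890), a protein of the antenna belt, was at 4.50, 4.67 and 4.06 against 5.45, 5.62 and 5.90, a 2.37-fold difference (-1.25 ± 0.18) at a signal below the array median of 6.12. These were the *LHCA* genes past the threshold. *LHCA3* (AT1G61520, -0.89), *LHCA2* (AT3G61470, -0.86) and *LHCA5* (AT1G45474, -0.76) were lower by less than 2-fold with no overlap. *LHCA4* (AT3G47470), the partner of LHCA1 in the belt, was at 13.73, 13.80 and 13.87 against 14.05, 14.10 and 14.10, 1.22-fold lower (-0.29 ± 0.08). Its adjusted p was 0.0355, was 0.0541 with arrays of equal replicate number paired as a block, and lay between 0.0767 and 0.114 when any 1 array other than *naa20* replicate 3 was left out.

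**Figure D2:**
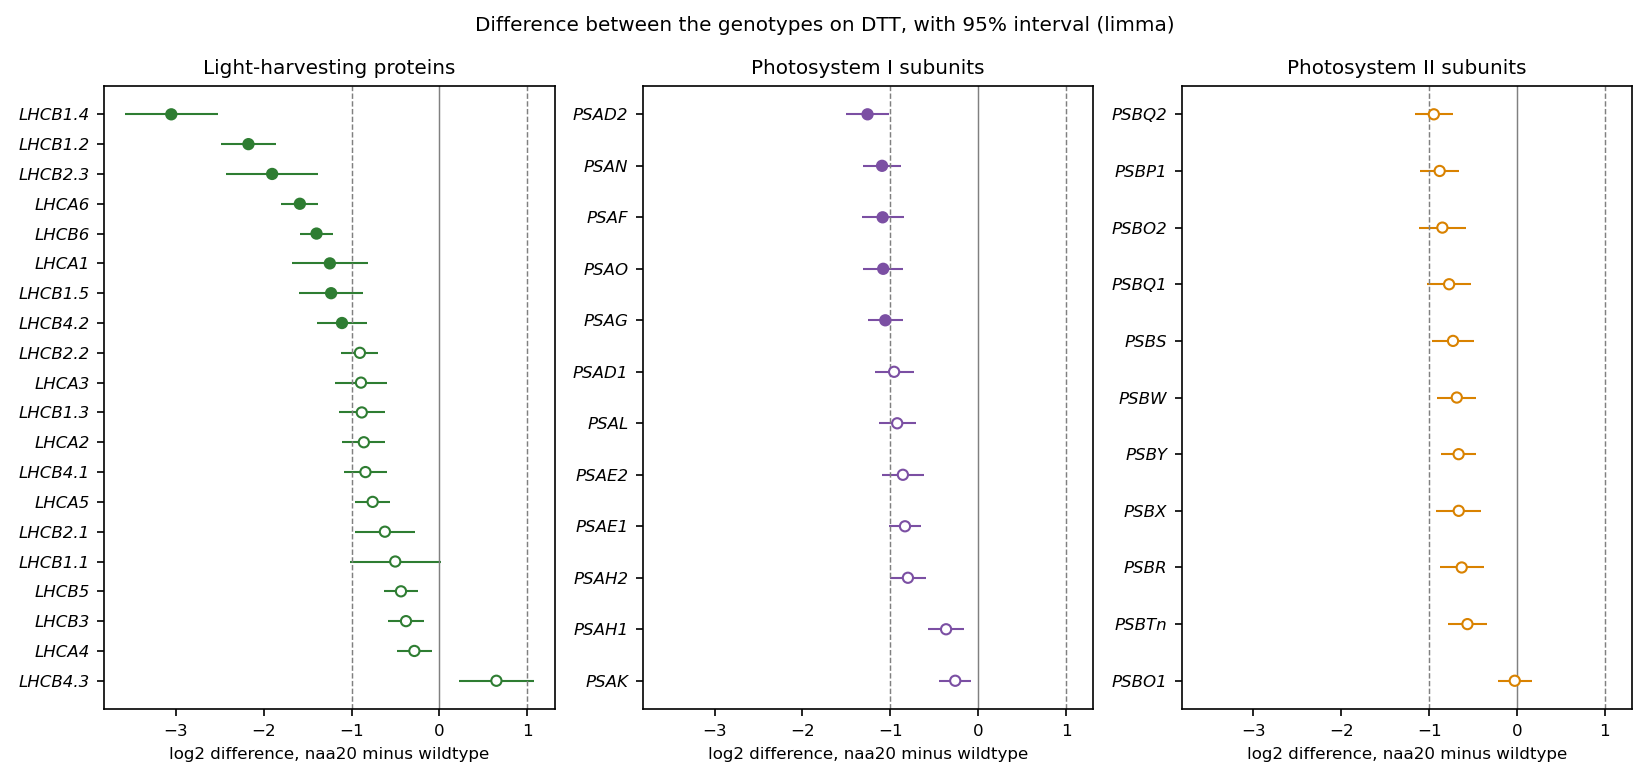
Log2 difference, *naa20* minus wildtype (x axis), of each gene with its 95% interval from limma, in 3 panels for antenna, photosystem I and photosystem II genes, with dashed lines at 2-fold. Filled points passed the adjusted p and the 2-fold limit, which 8, 5 and 0 genes did, and antenna genes run from -3.05 to 0.65 while photosystem II genes run from -0.95 to -0.03.

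All 12 photosystem I genes were lower at an adjusted p under 0.05. All had *naa20* arrays below the wildtype arrays, and the median difference was -0.94. The genes that passed the 2-fold limit were *PSAD2* (AT1G03130), *PSAN* (AT5G64040), *PSAF* (AT1G31330), *PSAO* (AT1G08380) and *PSAG* (AT1G55670), with differences from -1.26 to -1.06. PSAD and PSAE lie on the stromal side, where ferredoxin docks. *PSAD2* was at 7.84, 7.83 and 7.62 in *naa20* and at 9.04, 8.90 and 9.13 in wildtype (-1.26 ± 0.11, adjusted p = 0.00018). Its copy *PSAD1* (AT4G02770) was at 8.80, 8.63 and 8.68 against 9.56, 9.68 and 9.73 (-0.96 ± 0.09), just short of 2-fold, and reached -1.01 without *naa20* replicate 1 or without wildtype replicate 1. The copies *PSAE2* (AT2G20260, -0.86 ± 0.10) and *PSAE1* (AT4G28750, -0.83 ± 0.08) were lower to a like degree. PSAN and PSAF are subunits at the lumenal side, where plastocyanin docks, and their genes were lower by close amounts. *PSAN* was at 10.57, 10.69 and 10.48 against 11.68, 11.71 and 11.64 (-1.09 ± 0.09, adjusted p = 0.000165), and *PSAF* at 11.19, 11.48 and 11.23 against 12.40, 12.40 and 12.37 (-1.09 ± 0.10, adjusted p = 0.000278).

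PSAH, PSAL and PSAO form the side of photosystem I at which mobile LHCII trimers bind, and PSAG and PSAK are membrane subunits on the antenna side. *PSAO* (-1.08 ± 0.10) and *PSAG* (-1.06 ± 0.08) passed the 2-fold limit, and *PSAL* (AT4G12800, -0.92 ± 0.09) and *PSAH2* (AT1G52230, 11.40, 11.54 and 11.50 against 12.28, 12.32 and 12.23, -0.80 ± 0.09) did not. The smallest differences of the group belonged to *PSAH1* (AT3G16140) and *PSAK* (AT1G30380). *PSAH1* was at 13.07, 13.20 and 13.03 against 13.45, 13.45 and 13.50 (-0.37 ± 0.09, adjusted p = 0.0152, and 0.054 without *naa20* replicate 1). *PSAK* was at 13.65, 13.67 and 13.67 against 13.91, 13.95 and 13.92 (-0.26 ± 0.08, adjusted p = 0.0373). The arrays of *PSAK* lay within 0.05 of each other in either genotype, and its adjusted p was 0.0662 with the replicate block and 0.0709 to 0.114 when any 1 array was left out.

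None of the 11 photosystem II genes passed the 2-fold limit, by the adjusted or the unadjusted p, although 10 were lower at an adjusted p under 0.05 and the same number at an unadjusted p under 0.05 (limma). For these 10 genes all *naa20* arrays lay below the wildtype arrays. The median difference was -0.68. The proteins of the oxygen-evolving complex held both ends of the group. *PSBQ2* (AT4G05180) was at 11.78, 11.96 and 11.79 in *naa20* and at 12.79, 12.73 and 12.85 in wildtype (-0.95 ± 0.09, adjusted p = 0.000332), and it passed the 2-fold limit once *naa20* replicate 2 was left out. *PSBP1* (AT1G06680) was at 11.35, 11.52 and 11.33 against 12.21, 12.28 and 12.34 (-0.88 ± 0.09), and *PSBO2* (AT3G50820) at 10.53, 10.88 and 10.54 against 11.48, 11.54 and 11.47 (-0.85 ± 0.12). *PSBQ1* (AT4G21280) was also lower, at -0.77 ± 0.11. *PSBO1* (AT5G66570), the other gene for the manganese-stabilising protein PSBO, was at 13.75, 13.78 and 13.71 in *naa20* and at 13.80, 13.80 and 13.71 in wildtype. Its genotypes overlapped, and the difference was -0.03 (adjusted p = 0.85), with a 95% interval from -0.22 to 0.17 that lies inside the 2-fold limit.

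The remaining photosystem II genes lay close together. *PSBS* (AT1G44575), the sensor of lumen acidity in photoprotective energy dissipation, was 1.66-fold lower, with 9.78, 10.04 and 9.86 in *naa20* against 10.61, 10.68 and 10.56 in wildtype (-0.73 ± 0.10, adjusted p = 0.00136). The small subunits *PSBW* (AT2G30570, -0.68), *PSBY* (AT1G67740, -0.66), *PSBX* (AT2G06520, -0.66) and *PSBR* (AT1G79040, -0.63) were 1.55- to 1.61-fold lower. *PSBTn* (AT3G21055), a further small subunit, had 11.62, 11.74 and 11.49 against 12.19, 12.21 and 12.14 (-0.56 ± 0.09, adjusted p = 0.00347). All of these were without overlap between genotypes.

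Gene copies within a family were compared in their difference between genotypes. Signals of different probe sets cannot be compared as RNA levels. The log2 ratio of a pair of copies on 1 array can be compared between genotypes if both probe sets follow their RNA alike. Whether they do was not tested. In the *LHCB* families the pairs share genes, so the 21 pairs in 8 families are not independent. The ratio did not overlap between genotypes in 15 of the 21 pairs, while 52.6% of all pairs of probe sets on the array were without overlap. Each of these 15 had p = 0.1 by the exact two-sided permutation test, the smallest value that 3 arrays against 3 allow (0.25 if arrays of equal number are kept as pairs), and 0.14 after Benjamini-Hochberg adjustment over the 21 pairs, so no pair could pass a threshold of 0.05. The ratio of *LHCB1.4* to *LHCB1.3* was -1.99, -1.45 and -1.97 in *naa20* and 0.46, 0.32 and 0.31 in wildtype, a shift of -2.17 ± 0.18 (SE). That of *LHCB1.2* to *LHCB1.3* shifted by -1.29 ± 0.14 and that of *LHCB1.4* to *LHCB1.2* by -0.88 ± 0.24. On these arrays *LHCB1.4* was lowered relative to each of the other 4 copies, and *LHCB1.2* relative to the remaining 3. Of these copies *LHCB1.1* had a mean signal at only the 18.9th percentile of all probe sets. Whether a fall of its RNA would show in full at so low a signal was not tested. The ratio of *LHCB2.3* to *LHCB2.1* shifted by -1.28 ± 0.16, that of *LHCB4.2* to *LHCB4.1* by -0.27 ± 0.10, and that of *LHCB4.1* to *LHCB4.3* by -1.49 ± 0.27.

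Pairs of photosystem subunit genes were compared in the same way. The ratio of *PSBO2* to *PSBO1* was -3.22, -2.90 and -3.17 in *naa20* and -2.32, -2.26 and -2.24 in wildtype, a shift of -0.82 ± 0.10. The shift was -0.43 ± 0.06 for *PSAH2* to *PSAH1* and -0.30 ± 0.10 for *PSAD2* to *PSAD1*, where the closest arrays of the genotypes nearly met at -0.80 and -0.78. For *PSAE2* to *PSAE1* (-0.02 ± 0.09, exact permutation p = 1) and *PSBQ2* to *PSBQ1* (-0.17 ± 0.10, exact permutation p = 0.2) the ratios overlapped, as they did for *LHCB2.2* to *LHCB2.1* and for 3 pairs of *LHCB1* genes. *PSBO1* and *PSAH1* had mean signals at or above 13, where the differences of all 58 probe sets ran from -0.60 to 0.57. The part of this narrow range in the shifts of their pairs was not tested. Near-identical copies can share hybridisation, and how the probes divide them was not analysed here.

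**Figure D3:**
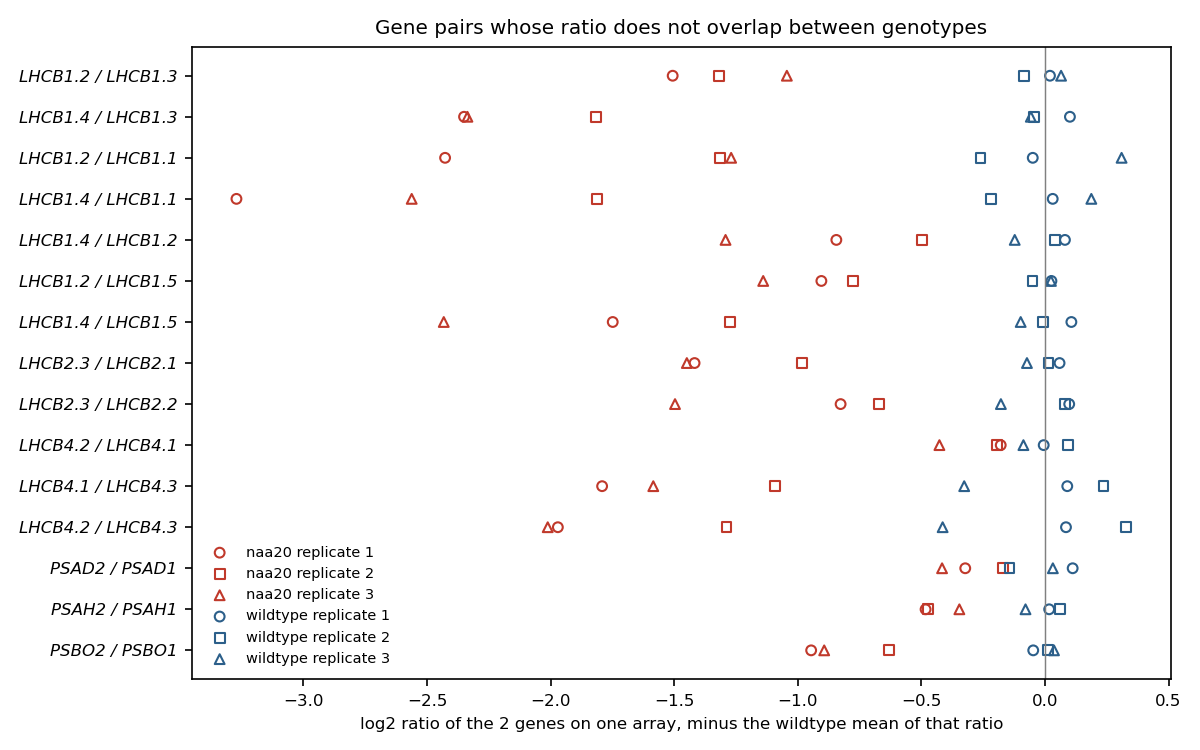
Log2 ratio of a pair of gene copies on each array, set to 0 at the wildtype mean (x axis), for the 15 pairs (y axis) whose ratios did not overlap, with *naa20* in red and wildtype in blue. The first *naa20* array of *LHCB1.4* to *LHCB1.1*, a pair that holds the low signal of *LHCB1.1*, lies furthest left. *PSAD2* to *PSAD1* has red and blue points almost touching.

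Some of these copies are neighbours on the chromosome with no other protein-coding gene between them. *LHCB1.2*, *LHCB1.1* and *LHCB1.3* follow each other on chromosome 1, with differences of -2.17, -0.50 and -0.88. *LHCB1.5* and *LHCB1.4* are adjacent on chromosome 2, with differences of -1.23 and -3.05, and *LHCB2.2* and *LHCB2.1* lie side by side on the same chromosome with -0.91 and -0.62. Adjacent genes thus differed among themselves by up to 1.82 on the log2 scale, which is the shift of the ratio of *LHCB1.4* to *LHCB1.5* (-1.82 ± 0.34). The 43 genes lie on all nuclear chromosomes, 17, 8, 8, 6 and 4 of them on chromosomes 1 to 5.

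The genes with the highest signals had the smallest differences. At a limit of 13 on the log2 scale, chosen after the values were seen, 6 genes had a mean signal at or above it: *LHCA4*, *LHCB3*, *LHCB5*, *PSAH1*, *PSAK* and *PSBO1*. Their differences ran from -0.44 to -0.03 with a median of -0.33, and none passed the 2-fold limit. On the wildtype arrays they ranked between the 5th and the 28th highest signal of all probe sets. The 52 other probe sets at or above 13 ran from -0.60 to 0.57 with a median of 0.01, and none of them passed the 2-fold limit either. All 6 arrays share 1 distribution of signals, with a highest value of 14.58, and the part of this scale in the small differences was not tested. Below the limit the medians were -0.91 for 17 antenna genes, -1.01 for 10 photosystem I genes and -0.71 for 10 photosystem II genes, and in the photosystem I genes the differences then lay between -1.26 and -0.80.

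**Figure D4:**
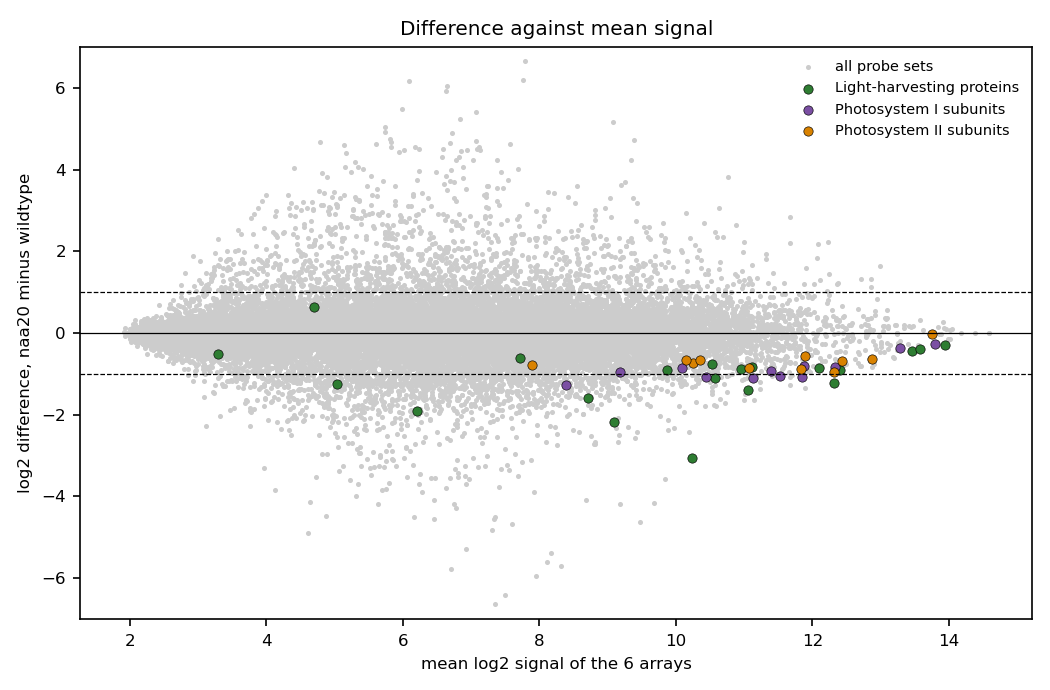
Log2 difference, *naa20* minus wildtype (y axis), against the mean log2 signal of the 6 arrays (x axis) for all 27827 probe sets in grey and the 43 genes in colour, with dashed lines at 2-fold. The coloured points lie in the lower part of the cloud, and those with a signal of 13 or more lie close to 0, where the grey points also have a narrow range.

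The spread between arrays was unequal. The median SD of the 43 genes was 0.123 in *naa20* and 0.0363 in wildtype, while over all probe sets it was 0.136 and 0.130. For the 1748 other probe sets with a mean signal of 9.98 or more it was 0.0931 in *naa20* and 0.0691 in wildtype. The array medians of the antenna genes were 10.03, 10.23 and 9.98 in *naa20* and 11.24, 11.30 and 11.23 in wildtype. Those of the photosystem I genes were 10.92, 11.06 and 10.90 against 11.93, 11.95 and 11.97, and those of the photosystem II genes 11.35, 11.52 and 11.33 against 12.19, 12.21 and 12.14. The second *naa20* array was nearest to wildtype in each group. It was the highest *naa20* array for 35 of the 43 genes and lay above the *naa20* mean for 39.

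Genes that serve the photosystems in other ways were lower too. Of all probe sets, 17.4% were lower at an adjusted p under 0.05 and 4.97% fell past the 2-fold limit. Of 21 genes for targeting and assembly of antenna and photosystem proteins and for their kinases, all were lower at an adjusted p under 0.05, with a median of -0.70, and 1 passed the 2-fold limit. This was *PPL1*, a PsbP-like protein of photosystem II repair (-1.04 ± 0.12), and the highest value was that of *STN7*, the kinase of LHCII in state transitions (-0.36 ± 0.10). Of 15 genes for electron carriers and the ATP synthase, 14 were lower, 13 of them at an adjusted p under 0.05, with a median of -0.73. None was higher at that threshold. *PGRL1A*, for a protein of cyclic electron flow, passed the 2-fold limit (-1.13 ± 0.11), and its copy *PGRL1B* had the highest value (0.29 ± 0.11, adjusted p = 0.0828). For 2 plastid loci on the list the differences were 0.00 (ATCG00580) and 0.09 (ATCG00020, adjusted p = 0.427), at mean signals of 14.39 and 14.05. ATCG00580 had the same value on all 6 arrays, close to the highest signal of 14.58, so a change of this RNA could not be read from it.

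Of 9 genes for proteins related to the antenna, 8 were lower, and the median of the 9 was -0.63. At an adjusted p under 0.05, 6 were lower, against 17.4% of all probe sets. The 2-fold limit was passed by 2, against 4.97% of all probe sets. The 2 past the 2-fold limit were *OHP1*, a one-helix protein of photosystem II assembly (-1.08 ± 0.11), and *LHCB7*, a rare relative of the antenna proteins (-1.04 ± 0.16). The early light-induced proteins, which bind pigments under light stress, did not pass the test. *ELIP2* was at 8.39, 8.21 and 9.74 in *naa20* and at 7.51, 7.58 and 9.36 in wildtype (0.63 ± 0.58, adjusted p = 0.468, and 0.0122 with the replicate block). *ELIP1* was at 8.38, 8.35 and 10.16 against 8.48, 8.60 and 10.05 (-0.08 ± 0.59, adjusted p = 0.938). The third array of either genotype was the high one for both genes, by 1.45 to 1.81 over the mean of the first 2 arrays. Over the 43 photosystem genes the same quantity ran from -0.73 to 0.45 in *naa20* and from -0.37 to 0.54 in wildtype.

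**Figure D5:**
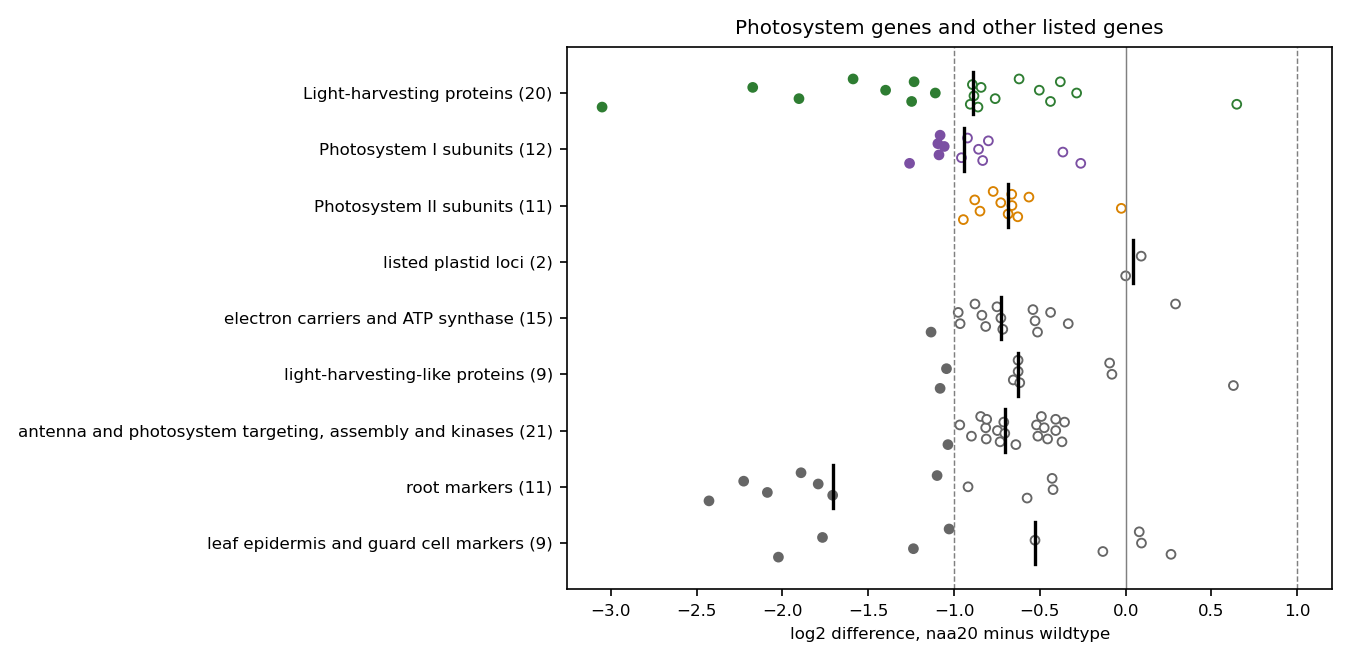
Log2 difference, *naa20* minus wildtype (x axis), of every gene in the 3 groups of photosystem genes and in 6 other lists (y axis, number of genes in brackets). Filled points passed the adjusted p and the 2-fold limit, black bars are medians, and the medians of the photosystem groups (-0.89, -0.94 and -0.68) lie to the right of that of the root markers (-1.71).

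Some markers of other cell types of the seedling were lower as well. Of all probe sets, 17.4% were lower at an adjusted p under 0.05 and 4.97% fell past the 2-fold limit. All 11 root markers were lower, 10 at an adjusted p under 0.05 and 7 past the 2-fold limit, from -2.43 (*CASP1*, of the endodermis) to -0.42 (*PLT2*, of the root stem cell niche, adjusted p = 0.174). Their summed signal on the log2 scale was 8.75 to 9.002 in *naa20* and 10.93 to 11.20 in wildtype, to which *CASP1* contributed most. Without *CASP1* it was 7.34 to 7.76 against 8.91 to 9.27, and the mean log2 signal of the 11 markers was 4.11 to 4.396 against 5.54 to 5.81. Of 9 markers of leaf epidermis and guard cells, 4 were lower and none was higher at an adjusted p under 0.05. The 4 were *SPCH* (-2.02, of the stomatal lineage), *TMM*, *SDD1* and *ATML1*. The others did not pass the test: *MUTE* (-0.53), *KAT1* (-0.13), *MYB60* (0.08), *FAMA* (0.09) and *KCS6* (0.26, of wax synthesis, adjusted p = 0.349). The summed signal of the 9 was 10.48 to 10.76 in *naa20* against 11.31 to 11.45 in wildtype, where *SPCH* contributed most. The mean log2 signal of the 9 was 6.90 to 7.02 against 7.58 to 7.76. The lowest value on every array was 1.75, so a signal of 0 was not possible for any marker. The root markers *RHD6* and *MYB36* had mean signals at the 18.8th and 14.8th percentiles of all probe sets. The part of the makeup of the seedlings in the photosystem result was not tested.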

How the data were processed

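Total RNA of whole seedlings was hybridised to Affymetrix Arabidopsis Gene 1.0 ST arrays. The authors deposited log2 signals after RMA, that is background correction, quantile normalization and summary over the probes of a gene, with custom CDF version 16. All 6 arrays hold the same sorted values, so a shift common to all genes would not be seen. Scanner files and detection calls were not used. Precision is limited by having 3 arrays per genotype.

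The genotypes were compared on these values by limma's lmFit and eBayes (limma 3.58.1, R 4.3.3) without a further filter, with p-values adjusted over all 27827 probe sets. Differences are *naa20* minus wildtype, intervals are 95% intervals, and ratios of paralogs were set against each other by exact permutation over the arrays, two-sided. On simulated data with 200 changed probe sets of 27827, the procedure recovered 184 for this comparison, none in the wrong direction, and called 1 unchanged probe set. The simulated differences were all larger than 2-fold, and the noise was drawn independently for each gene and array. These figures therefore do not cover smaller differences or arrays on which many genes deviate together. The plots come from matplotlib 3.10.9 (Python 3.11.15).

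The 43 genes and the other lists were chosen with earlier results of these data known. Values of all 6 arrays were to be given for the 3 genes with the lowest and the 2 with the highest difference in each group and for paralogs whose ratio does not overlap. Those of the other antenna genes past the threshold, and of *LHCB3*, *PSBS*, *ELIP1* and *ELIP2*, were added after the values were seen. In the other lists the genes with the lowest and the highest difference are named. *LHCB7*, *ELIP1*, *RHD6*, *MYB36* and the other leaf markers were added likewise. All 43 loci have an entry in RefSeq's gene table for TAIR10.1, which was used for names and neighbours only. Sequence features that had been planned (protein starts, promoter motifs) were not analysed here, and 18 of 20 listed plastid loci had no value used here.

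Equal replicate numbers were checked for pairing, which neither the labels nor the paper states. Deviations from the genotype means correlated across genes at 0.176, 0.19 and 0.385 for the arrays numbered 1, 2 and 3, all over the limit of 0.1, the level at which pairing is assumed. The main comparison and the permutation of ratios do not use the pairing. A fit with a replicate block was run as an alternative, and its p is given where it changed a call. For the first *naa20* with the second wildtype array the value was 0.174, and for the reverse 0.145, so the pairing shows mainly in arrays number 3. Alternatives to the main setting were other variance estimates, centrings and normalization, a filter on low signals, array weights, a replicate block, each array left out and other thresholds.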

Additional observations from a re-analysis of the deposited data

How the results depend on the processing

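The counts of genes past the threshold were 8 (antenna), 5 (photosystem I) and 0 (photosystem II) under other variance estimates, centrings, a further quantile normalization, a filter on the lowest 25% of signals (which removes *LHCB1.1*), array weights, the replicate block and an unadjusted p. With any fold they were 18, 12 and 10, and 9447 probe sets passed in place of 2760. Leaving out each array gave 8 to 8 antenna, 5 to 6 photosystem I and 0 to 1 photosystem II genes, through *PSAD1* (-1.01 without *naa20* replicate 1 or wildtype replicate 1) and *PSBQ2* (without *naa20* replicate 2), and 2586 to 2897 probe sets. The medians then ran from -0.96 to -0.82, -0.97 to -0.92 and -0.75 to -0.64. Centring on other probe sets of like signal moved every difference by 0.0059. With any fold, counts over all alternatives were 16 to 18, 10 to 12 and 10. With the replicate block 2809 probe sets passed, and the adjusted p lost the threshold of 0.05 for *LHCA4* (0.0541) and *PSAK* (0.0662) and met it for *ELIP2* (0.0122), which changed no other call of the genes listed here. With an ordinary variance per gene it was 0.112 for *LHCB4.3* and 0.0666 for *LHCB2.1*. The shift between genotypes of the ratio of *PSAE2* to *PSAE1* ran from -0.086 to 0.045 with arrays left out. This shift was positive without *naa20* replicate 3 (0.045) or wildtype replicate 3 (0.022). The genotypes of this pair overlap, and the cause was not tested.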
